A study of Homo sapiens with 4 samples.

Results

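Nucleotide excision repair removes ultraviolet photoproducts and other bulky lesions from DNA by cutting out a short stretch of the damaged strand. It starts in 2 ways. In global-genome repair, XPC and the DDB1-DDB2 complex find lesions anywhere in the genome, whereas in transcription-coupled repair a stalled RNA polymerase II recruits ERCC6 (CSB) and ERCC8 (CSA). Both routes lead to TFIIH, which opens the helix, to XPA, which verifies the lesion, and to the nucleases ERCC1-ERCC4 (XPF) and ERCC5 (XPG), after which the gap is filled and sealed. The genes described here are 31 members of this pathway, chosen by symbol and not by any measured value, out of 57820 gene IDs in the count table. Each of the 31 was found in the table, and 30 passed the filter on low counts that left 16426 genes for testing.

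IMR-90 is a fibroblast line from human fetal lung. RNA was measured in confluent cultures of it, in 2 libraries of RB1 KO cells and 2 libraries of wild-type cells. The RB1 KO cells carry a CRISPR-Cas9 guide against the RB1 start codon delivered by lentivirus, and are a pool of puromycin-resistant cells rather than a clone. No transduced and selected control is described for the wild-type cells, so effects of transduction, Cas9 or selection cannot be told apart from those of the RB1 guide. The cells of this RNA experiment were not described as irradiated, and the values are therefore levels of repair transcripts without a stated ultraviolet dose. The libraries held 30873239 to 34247292 counts in genes. Levels are given as CPM, each count relative to the library's total, after TMM scaling, a factor that sets the bulk of genes equal between libraries. Fold changes are RB1 KO over wild-type on the log2 scale, and a gene was called at an adjusted p under 0.1 in edgeR's quasi-likelihood test. RB1 itself was at 85.3 and 79.0 CPM in the RB1 KO libraries and 76.5 and 75.2 CPM in the wild-type libraries. This level does not check the genotype, since the guide edits the DNA around the start codon and the transcript can persist. The paper reports disruption of RB1 in the RB1 KO cells from a Western blot of the protein. All 10 fibroblast markers were detected, with summed levels of 42070 to 47110 CPM in RB1 KO and 34380 to 36280 CPM in wild-type, while 4 blood markers summed to at most 0.189 CPM in any library and the epithelial and endothelial markers CDH1, SFTPC and CDH5 had 0 counts. The 6 epithelial markers summed to 31.6 and 39.8 CPM in RB1 KO and 53.4 and 40.9 CPM in wild-type, mostly from KRT18 and KRT8. The 4 tested lay below wild-type with no overlap (24.3% of all genes), with a median log2 fold change of -0.55, and 0 were called. The 3 endothelial ones summed to 5.14 and 3.64 CPM in RB1 KO and 1.53 and 1.82 CPM in wild-type, with KDR called higher, against 1.99% of all genes. Among the fibroblast markers LUM was called higher by edgeR, against 1.99% of all genes, and 5 by DESeq2, against 426 of 14364 genes. All 10 fibroblast markers had positive values, as did 7932 of 16426 genes, with a median of 0.29 that was -0.20 with spike-in scaling. Their part in the values below was not tested.

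RB1 restrains E2F transcription factors, so the promoters of the repair genes were searched for E2F-type letters (TTTCGCGC, TTTGGCGC or TTTCCCGC, either strand) and for the CHR element of cell cycle genes (TTTGAA, either strand). The windows were those of RefSeq on GRCh38.p14, from 250 bases before to 50 bases after each annotated start. All 31 genes were matched, with 47 windows. E2F-type letters were found in 2 of these 47 windows, of XPC and CUL4A, against 2.74% of all 35116 windows. TTTGAA was found in 5 windows, of CUL4B, DDB2, ERCC1, ERCC6 and XRCC1, against 15.2% of all windows, and none of the 47 held both kinds. The windows below are shown because they belong to lesion recognition: the only members with E2F-type letters, XPC (chr3:14178552-14178851, minus strand) and CUL4A (chr13:113208444-113208743, plus strand), and the lesion sensor DDB2 with TTTGAA (chr11:47214724-47215023, plus strand). Capitals mark the match, which in CUL4A is the reverse complement. A match describes these letters and is not evidence of binding. Only these exact letters were searched, and variants of them were not counted. The DDB2 window, for example, holds tttggcgg after its TTTGAA, which differs from TTTGGCGC in the last letter.
XPC: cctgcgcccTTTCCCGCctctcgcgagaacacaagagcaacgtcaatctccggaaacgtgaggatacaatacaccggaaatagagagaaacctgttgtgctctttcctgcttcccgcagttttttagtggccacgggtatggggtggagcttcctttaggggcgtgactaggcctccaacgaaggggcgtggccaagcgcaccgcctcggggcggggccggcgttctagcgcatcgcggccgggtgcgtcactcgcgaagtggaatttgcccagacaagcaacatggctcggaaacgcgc
CUL4A: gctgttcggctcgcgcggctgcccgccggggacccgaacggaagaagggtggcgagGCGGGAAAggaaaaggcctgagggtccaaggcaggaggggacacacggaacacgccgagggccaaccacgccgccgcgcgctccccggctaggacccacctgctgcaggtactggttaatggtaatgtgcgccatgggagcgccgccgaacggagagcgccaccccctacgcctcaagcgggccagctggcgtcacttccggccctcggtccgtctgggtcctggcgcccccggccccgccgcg
DDB2: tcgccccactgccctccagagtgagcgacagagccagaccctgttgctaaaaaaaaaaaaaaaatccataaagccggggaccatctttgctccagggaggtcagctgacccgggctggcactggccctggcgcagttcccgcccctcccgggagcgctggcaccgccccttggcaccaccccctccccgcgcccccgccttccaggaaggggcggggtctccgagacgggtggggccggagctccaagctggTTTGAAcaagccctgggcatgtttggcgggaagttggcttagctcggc

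The repair genes as a whole lay close to equal in RB1 KO and wild-type cells. Of the 30 tested, 0 were called in either direction by edgeR or by DESeq2, against 2.9% of all genes tested in edgeR and 4.07% in DESeq2, so that a count of 0 among 30 is near the background and says little about these genes. At an unadjusted p under 0.05, edgeR had 2 lower and 0 higher, against 7.16% and 8.16% of all genes, and DESeq2 had 0. The median log2 fold change was -0.022, beside -0.010 over all genes tested, and the median size of the change without its sign was 0.053 beside 0.14. Of the 30 values, 20 were negative and 10 positive. RB1 KO lay below wild-type with no overlap of the libraries in 8 genes (24.3% of all genes) and above it in 2 (22.5% of all genes), and the groups overlapped in 20. In bulk RNA, fewer cells of a type and less RNA per cell cannot be told apart.

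A p that misses the threshold does not show equality, and the intervals of the fold changes give the sizes of change. They rest on the same spread of 2 libraries a group, which may be technical, and do not show equality either. The 95% interval lay within 0.5 of 0 on the log2 scale, a change of 1.41-fold, in 29 of 30 repair genes, compared with 53.5% of all genes tested. These genes are counted well, with a median standard error of 0.0933 beside 0.124 over all genes, and whether that alone gives the difference in share was not tested. RBX1 was the exception. Without single libraries the count ran from 23 to 26. The directions of the small changes depend on scaling. With library totals in place of TMM factors, 7 of the 10 positive values became negative, CUL4A (-0.033) and CDK7 (-0.015) among them. The table also holds synthetic ERCC spike-ins, which share only their name with the ERCC repair genes. Scaled by these, the median of all genes was -0.49 and that of the repair genes -0.51, or -0.028 relative to all genes, and 0 of 30 intervals then lay within 0.5 of 0. Spike-ins were 0.207% and 0.21% of gene counts in RB1 KO and 0.187% and 0.135% in wild-type. Wild-type replicate 1 was thus nearer to the RB1 KO libraries than to wild-type replicate 2. All values with spike-in scaling lean on wild-type replicate 2, and how evenly the spike-ins were added was not tested.

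**Figure D1:**
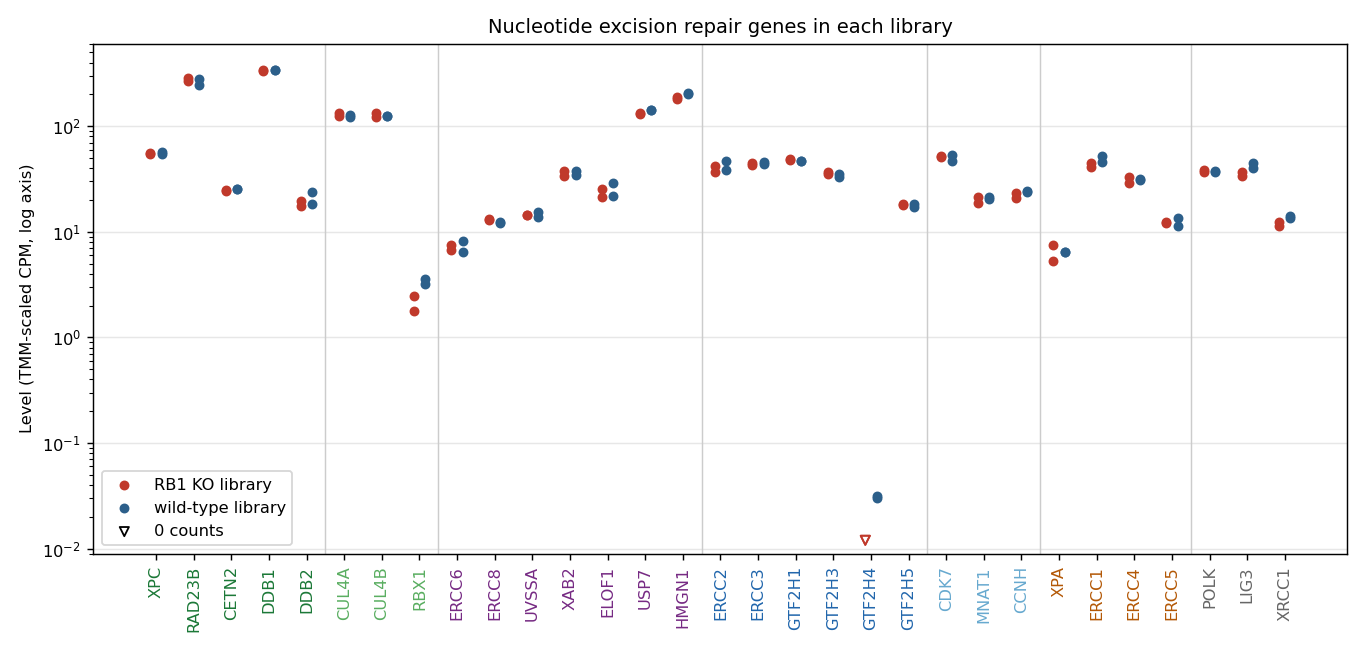
Level of each of the 31 repair genes (TMM-scaled CPM, log axis) in the 2 RB1 KO libraries (red) and the 2 wild-type libraries (blue), with names coloured and lines drawn by functional group in the order of the report; open triangles mark 0 counts. Levels spread from RBX1 at 1.80 CPM in RB1 KO replicate 1 to DDB1 at 342 CPM in wild-type replicate 1, with GTF2H4 near 0, and points of a gene lie close together.

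**Figure D2:**
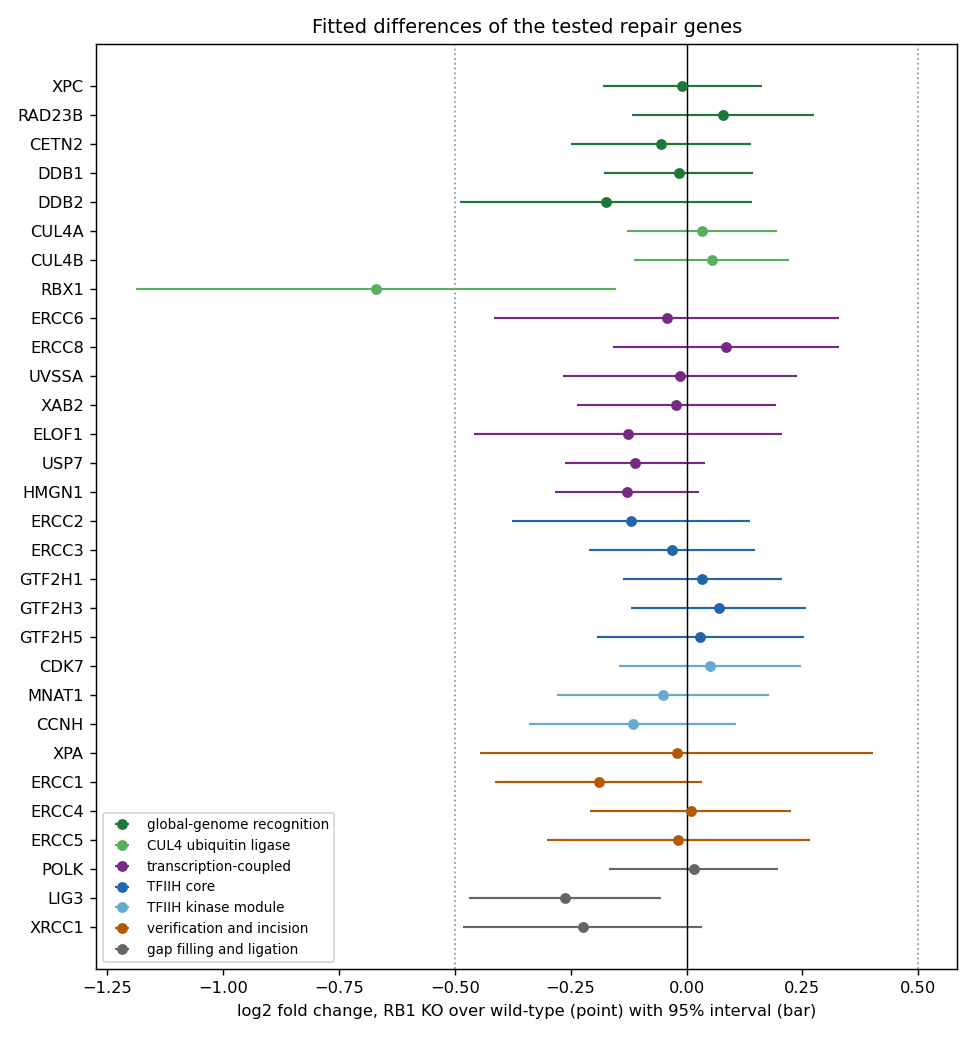
Fitted log2 fold change of RB1 KO over wild-type (point) and its 95% interval (bar) for the 30 tested repair genes, coloured by functional group, with dotted lines at 0.5 below and above 0. All intervals but that of RBX1 (-1.19 to -0.15) lie between the dotted lines, and those of RBX1 and LIG3 do not reach 0.

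Among the 5 genes of global-genome recognition, the median log2 fold change was -0.017 and 4 of 5 had overlapping groups. XPC, which binds the distorted helix opposite a lesion, was at 56.0 and 55.0 CPM in RB1 KO and 54.4 and 57.4 CPM in wild-type. The RB1 KO libraries thus lay within the range of the wild-type ones, and the log2 fold change was -0.0088 with an interval of -0.18 to 0.16 (adjusted p = 0.971 from edgeR). Its gene lies on chromosome 3, 14186647 to 14220121 on the minus strand of GRCh37, and 24.6% of its exon bases overlap genes of the opposite strand. RAD23B, which stabilises XPC, had 265 and 289 CPM in RB1 KO and 277 and 247 CPM in wild-type, again overlapping, with a log2 fold change of 0.079. It read 0.17 without wild-type replicate 1 and 0.0001 without wild-type replicate 2. CETN2, the centrin of the XPC complex, was the member of the group whose libraries did not overlap, at 24.2 and 24.9 CPM in RB1 KO and 25.5 and 25.6 CPM in wild-type, with a log2 fold change of only -0.055.

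DDB1 and DDB2 form the ultraviolet damage sensor that acts ahead of XPC on cyclobutane dimers. DDB1, the adaptor, was the most highly counted repair gene, at 332 and 340 CPM in RB1 KO and 342 and 337 CPM in wild-type. DDB2, the lesion-binding subunit and a known target of p53 in human cells, was at 19.6 and 17.5 CPM in RB1 KO and 18.2 and 23.6 CPM in wild-type. Wild-type replicate 2 stood above the other libraries, and the groups overlapped. The log2 fold change was -0.17 with an interval of -0.49 to 0.14 (adjusted p = 0.60 from edgeR), and that library decides its sign, since it was 0.025 without wild-type replicate 2 and -0.34 without wild-type replicate 1.

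The CUL4 ubiquitin ligase joins DDB1 to the ring protein RBX1 through a cullin and marks histones, XPC and DDB2 or, with ERCC8, factors at the stalled polymerase. Its cullins differed little, and their positive values turned negative with library totals and with spike-in scaling. CUL4A was at 124 and 132 CPM in RB1 KO and 128 and 123 CPM in wild-type (log2 fold change 0.034), and CUL4B at 134 and 123 CPM in RB1 KO and 124 and 124 CPM in wild-type (0.054). RBX1 differed most of all the repair genes. Its counts were 59 and 82 in RB1 KO and 118 and 103 in wild-type, or 1.80 and 2.46 CPM in RB1 KO and 3.54 and 3.24 CPM in wild-type. Both RB1 KO libraries lay below both wild-type libraries. The log2 fold change was -0.67 (standard error 0.225, unadjusted p = 0.0177, adjusted p = 0.210 from edgeR) and did not pass, and DESeq2 gave -0.66 (adjusted p = 0.489). It was -0.91 without RB1 KO replicate 2 and -0.46 without RB1 KO replicate 1. With no library left out, RBX1 passed only with the replicate numbers crossed (adjusted p = 0.0495 from edgeR). That pairing was added after the data were seen, so the pass carries no weight as a test. RBX1 (ENSG00000100387, chromosome 22, 41347351 to 41369313, plus strand, GRCh37) was at 1.82 CPM per kilobase of its principal (MANE Select) transcript in RB1 KO and 2.90 in wild-type, the lowest of the CUL4 group by that scale. It was singled out after its values were seen.

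Genes of transcription-coupled repair had a median log2 fold change of -0.043 over 7 genes, of which 6 were negative. ERCC6, the ATPase that binds stalled polymerase, was at 7.52 and 6.76 CPM in RB1 KO and 6.49 and 8.23 CPM in wild-type, with the RB1 KO libraries inside the wild-type range. Its log2 fold change was -0.043, with an interval of -0.41 to 0.33 (adjusted p = 0.932 from edgeR) and values from -0.19 to 0.14 as single libraries were left out. ERCC8, the substrate receptor that brings the CUL4 ligase to ERCC6, was at 12.9 and 13.1 CPM in RB1 KO and 12.4 and 12.2 CPM in wild-type. The RB1 KO libraries were both higher, by little, and the log2 fold change was 0.085, with an interval of -0.16 to 0.33 (adjusted p = 0.762 from edgeR). This was the highest value among the repair genes in this fit, and it was -0.39 with spike-in scaling.

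UVSSA, which carries TFIIH to the stalled polymerase, had a log2 fold change of -0.015, and XAB2, an XPA-binding protein that is also a splicing factor, had -0.023. ELOF1, an elongation factor that guides ubiquitylation of the polymerase, was at 21.6 and 25.3 CPM in RB1 KO and 29.1 and 22.0 CPM in wild-type. Its wild-type libraries stood further apart than the group means, and its log2 fold change of -0.13 became 0.10 without wild-type replicate 1. USP7, the deubiquitinase that pairs with UVSSA, and HMGN1, a nucleosome-binding protein, were the members of the group with separate libraries below wild-type. USP7 was at 130 and 133 CPM in RB1 KO and 142 and 142 CPM in wild-type (log2 fold change -0.11, interval -0.26 to 0.04), and HMGN1 at 189 and 182 CPM in RB1 KO and 205 and 200 CPM in wild-type (-0.13, interval -0.28 to 0.03). Both intervals reach 0 (adjusted p = 0.475 for USP7 and 0.420 for HMGN1 from edgeR).

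TFIIH, which opens the helix around the lesion and also serves transcription initiation, was near equal in both groups. Over 5 tested genes of its core the log2 fold changes ran from -0.12 to 0.069, with a median of 0.030 that was -0.036 with library totals and -0.45 with spike-in scaling. ERCC2 (XPD), the helicase that opens and scans the strand, was at 37.2 and 41.6 CPM in RB1 KO and 47.0 and 38.7 CPM in wild-type. The groups overlapped and wild-type replicate 1 was the highest library. The log2 fold change was -0.12 with an interval of -0.38 to 0.14 (adjusted p = 0.668 from edgeR), and it was 0.039 without wild-type replicate 1. ERCC3 (XPB), the translocase, was at 43.1 and 44.9 CPM in RB1 KO and 44.3 and 45.6 CPM in wild-type, a log2 fold change of -0.031 with an interval of -0.21 to 0.15 (adjusted p = 0.894 from edgeR). GTF2H1 (p62), GTF2H3 (p34) and GTF2H5 (p8) had 0.034, 0.069 and 0.030.

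GTF2H4 (p52), a core subunit, was listed with 0 and 0 counts in RB1 KO and 1 and 1 counts in wild-type and was not tested. A count this low allows no comparison. The gene lies on chromosome 6, 30875984 to 30881883 (GRCh37, plus strand), next to VARS2, which had 483 and 457 counts in RB1 KO and 475 and 515 counts in wild-type. The annotation used here shows no exon shared with another counted gene. It is later than the one the reads were counted on, and why so few reads were assigned to GTF2H4 was not tested. GTF2H2, the remaining core subunit tested here, was at 10.6 CPM in RB1 KO and 10.4 CPM in wild-type on average. It has near-identical copies, GTF2H2B and GTF2H2C, which were counted apart and make its level uncertain.

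The kinase module of TFIIH, which phosphorylates RNA polymerase II and is released during repair, had a median log2 fold change of -0.052 over 3 genes. CDK7, the kinase, was at 51.6 and 52.2 CPM in RB1 KO and 53.2 and 47.1 CPM in wild-type. Its cyclin CCNH was at 23.4 and 20.7 CPM in RB1 KO and 24.3 and 23.6 CPM in wild-type, with the groups just apart, and a log2 fold change of -0.12 (interval -0.34 to 0.11). MNAT1, which holds the pair together, had -0.052.

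The genes that verify and cut had a median log2 fold change of -0.020 over 4 genes. XPA, the scaffold of the incision complex, was the least counted of them, at 7.43 and 5.29 CPM in RB1 KO and 6.46 and 6.44 CPM in wild-type. The wild-type libraries lay between the RB1 KO ones, and the log2 fold change of -0.022 carried an interval of -0.45 to 0.40 (adjusted p = 0.972 from edgeR). Its value was 0.21 without RB1 KO replicate 2 and -0.28 without RB1 KO replicate 1. ERCC4 (XPF), the nuclease that cuts 5′ of the lesion, was at 33.4 and 29.1 CPM in RB1 KO and 30.7 and 31.4 CPM in wild-type (log2 fold change 0.0086, interval -0.21 to 0.22, adjusted p = 0.980 from edgeR). ERCC5 (XPG), which cuts on the 3′ side, was at 12.5 and 12.0 CPM in RB1 KO and 11.4 and 13.4 CPM in wild-type (-0.018, interval -0.30 to 0.27, adjusted p = 0.965 from edgeR). Of its exon bases, 33% overlap the read-through gene BIVM-ERCC5 on the same strand, which was listed at 0 counts, so that reads of the shared exons may be missing from both.

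ERCC1, the non-catalytic partner of ERCC4, differed more than the others of this group. It was at 41.3 and 44.8 CPM in RB1 KO and 52.8 and 45.4 CPM in wild-type, with both RB1 KO libraries below both wild-type libraries by a narrow gap. The log2 fold change was -0.19 with an interval of -0.41 to 0.03 (adjusted p = 0.409 from edgeR). It was -0.065 without wild-type replicate 1 and -0.29 without wild-type replicate 2. ERCC1 passed only with the replicate numbers crossed (adjusted p = 0.0746 from edgeR), a pairing added after the data were seen. Of its exon bases, 28.6% overlap POLR1G on the opposite strand, which had a log2 fold change of -0.30. The library kit marks strand but the strand counted is not stated, so reads of the shared bases may be left out of both genes.

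Gap filling and ligation had the lowest median of the groups, -0.22 over 3 genes. LIG3, the ligase that seals the repaired strand outside S phase, was at 33.9 and 37.0 CPM in RB1 KO and 44.6 and 40.4 CPM in wild-type. Both RB1 KO libraries were lower. The log2 fold change was -0.26 (standard error 0.0898, interval -0.47 to -0.05, unadjusted p = 0.0197, adjusted p = 0.220 from edgeR), and it did not pass. It ran from -0.33 to -0.18 as single libraries were left out. LIG3 passed only with the replicate numbers crossed (adjusted p = 0.0194 from edgeR), a pairing added after the data were seen. XRCC1, the scaffold that binds and stabilises LIG3, was at 11.2 and 12.4 CPM in RB1 KO and 14.1 and 13.5 CPM in wild-type, again with both RB1 KO libraries lower, and a log2 fold change of -0.22 (interval -0.48 to 0.03, adjusted p = 0.398 from edgeR). POLK, a polymerase that helps to fill the gap, was at 37.1 and 38.1 CPM in RB1 KO and 37.9 and 36.5 CPM in wild-type (log2 fold change 0.015). Opposite-strand genes overlap 30.5% of the exon bases of LIG3 and 20% of those of XRCC1. LIG3 and XRCC1 were described per library after their values were seen.

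Proteins that act as a unit were compared by the ratio of their counts within each library, which needs no scaling between libraries. Of 10 pairs, the libraries of the groups were separate in 1. CCNH over CDK7, per kilobase of MANE Select transcript, was at 0.504 and 0.442 in RB1 KO and 0.508 and 0.558 in wild-type, a log2 difference of -0.17 (exact permutation test, two-sided, p = 0.333, adjusted p = 0.741 over the 10 pairs). With 2 libraries against 2, 0.333 is the smallest p such a test can give. The other pairs overlapped. ERCC1 over ERCC4 was at 2.48 and 3.08 in RB1 KO and 3.44 and 2.89 in wild-type, and XPC over RAD23B at 0.238 and 0.215 in RB1 KO and 0.221 and 0.261 in wild-type. LIG3 over XRCC1 stayed within a narrow range, at 0.740 and 0.731 in RB1 KO and 0.774 and 0.734 in wild-type, with lower values in RB1 KO for both partners. Levels of such ratios depend on the length assigned to a gene. CUL4A over CUL4B averaged 1.02 in RB1 KO and 1.03 in wild-type by MANE Select length, and 4.34 in RB1 KO and 4.39 in wild-type by the union of all annotated exons, whereas the difference between groups does not depend on length.

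In CPM per kilobase of transcript, HMGN1 stood highest, at 146 in RB1 KO and 159 in wild-type, followed by DDB1 at 79.1 in RB1 KO and 80.0 in wild-type and RAD23B at 67.3 in RB1 KO and 63.7 in wild-type. CDK7 came next at 36.4 in RB1 KO and 35.2 in wild-type. The transcription-coupled factors ERCC6, at 0.793 in RB1 KO and 0.818 in wild-type, and ERCC8, at 1.38 in RB1 KO and 1.30 in wild-type, were lowest apart from GTF2H4 on this scale and also by the union of exons. XPC, at 15.2 in RB1 KO and 15.3 in wild-type, was thus more abundant than XPA, at 4.54 in RB1 KO and 4.61 in wild-type, ERCC4, at 4.62 in RB1 KO and 4.59 in wild-type, and ERCC5, at 3.15 in RB1 KO and 3.19 in wild-type. The order of XPA and ERCC4 is not resolved, and with the union of exons RAD23B came above HMGN1. Both length scales come from GENCODE v44, which is later than the GENCODE v19 on which the reads were counted. Exon bases added since would lower the level given for a gene, ERCC6 and ERCC8 included, and this was not tested.

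The repair genes lie on 17 chromosomes, and 5 of them are on chromosome 19. ERCC1, ERCC2 and XRCC1 sit on its long arm, with ERCC2 (45853095 to 45874176) and ERCC1 (45910592 to 45982086) near each other, and XAB2 and ELOF1 on its short arm. All 5 had negative fold changes, with a median of -0.13, beside -0.017 over the 25 tested repair genes elsewhere and -0.046 over the 1130 tested genes of that chromosome. Their longest transcripts had 56.2% to 61.3% G and C, whereas those of the other repair genes had 35.2% to 51.9%. The 10 repair genes with positive values under TMM scaling, of which 3 stayed positive with library totals and 0 with spike-in scaling, lay between 37.7% and 42.9%, and all 14 above that had negative values. Across the 30 repair genes, GC content and log2 fold change had a Spearman rho of -0.44 and a Pearson r of -0.28, which is -0.52 without RBX1. This is a description across genes of the same 4 libraries, which are not independent replicates. Over 12744 protein-coding genes rho was -0.15, with a median log2 fold change of -0.036 in the fifth with the most G and C and 0.050 in the fifth with the least. The part of base composition in the values of the chromosome 19 genes was not tested.

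**Figure D3:**
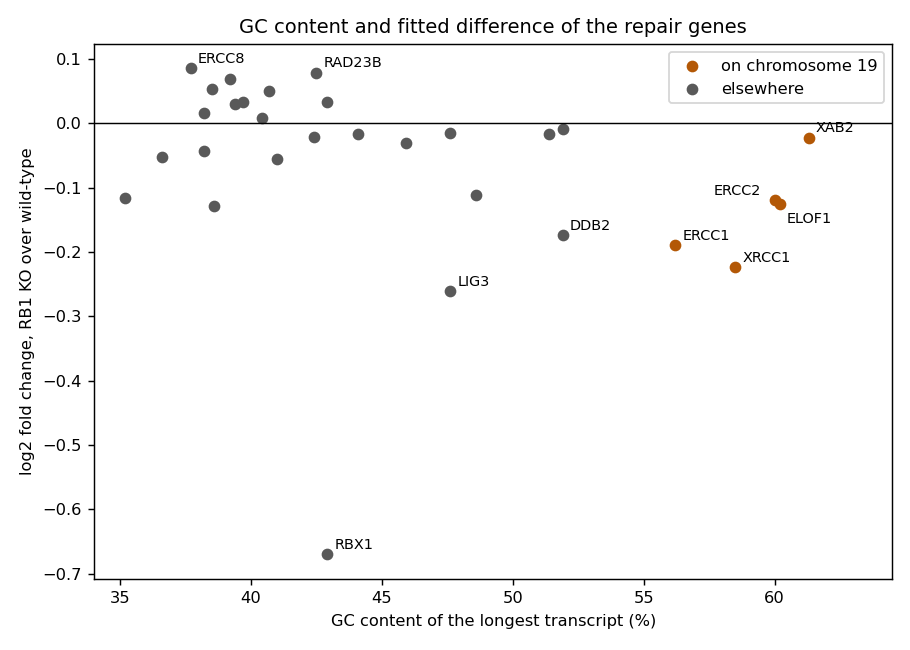
GC content of the longest annotated transcript (%) against log2 fold change of RB1 KO over wild-type for the 30 tested repair genes, with the 5 genes on chromosome 19 in orange and the others in grey. The orange points lie at 56.2% to 61.3% and below 0, and the 10 points above 0, of which 3 stayed above it with library totals and 0 with spike-in scaling, lie between 37.7% and 42.9%.

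Further genes of the pathway were taken from lists. Of 19 other recognition factors and regulators, among them the COP9 signalosome, which controls the CUL4 ligase, 0 were called by edgeR or DESeq2, against 2.9% and 4.07% of all genes, with a median of -0.016. At an unadjusted p under 0.05, edgeR had 2 lower, against 7.16% of all genes, and DESeq2 had 1. These counts are near the background, and PARP2 was among the genes edgeR called lower without RB1 KO replicate 2. The most abundant were VCP, the segregase that extracts ubiquitylated repair proteins, at 436 CPM in RB1 KO and 425 CPM in wild-type (0.039), and PARP1, a sensor of DNA breaks, at 141 CPM in RB1 KO and 159 CPM in wild-type (-0.17).

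Of 18 genes of single-strand binding, resynthesis and ligation, which also replicate DNA, 16 had negative values, with a median log2 fold change of -0.20 that was -0.65 with spike-in scaling. At an unadjusted p under 0.05, edgeR had 6 lower, against 7.16% of all genes, and DESeq2 had 3. RB1 KO lay below wild-type with no overlap in 9 (24.3% of all genes) and above it in 1 (22.5%). After adjustment only RFC5, a subunit of the clamp loader that places PCNA, was called lower, against 0.907% of all genes. It was at 9.28 CPM in RB1 KO and 12.9 CPM in wild-type, a log2 fold change of -0.48 (adjusted p = 0.0990 from edgeR) that DESeq2 did not call (adjusted p = 0.190). It also failed with limma-voom, RLE factors, spike-in scaling, either other filter, the replicate block and an adjusted p under 0.05. Abundant genes of this list included PCNA, the sliding clamp, at 72.8 CPM in RB1 KO and 78.2 CPM in wild-type (-0.10), and RPA1, at 67.1 CPM in RB1 KO and 71.2 CPM in wild-type (-0.086). LIG1, the replicative ligase, had -0.33 (adjusted p = 0.202 from edgeR). Without wild-type replicate 1 the median was -0.051 and none was called, none was called without RB1 KO replicate 1, and without RB1 KO replicate 2 RFC2, RFC5, POLD2 and LIG1 were called lower. Without wild-type replicate 2 the call was POLE2 in place of RFC5.

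In the same libraries, 15 genes of G2 and mitosis were all negative, as were 8494 of 16426 genes, with a median of -0.37. In edgeR 5 were called lower, against 0.907% of all genes, MKI67 (-0.49), CCNB2 (-0.44), CENPF (-0.45) and KIF20A (-0.55) among them. The paper already reports cell division and kinetochore categories as down-regulated in RNA of these cells. This list was chosen with earlier results of these data known and is no independent result. By FACS the paper found comparable cell cycle occupancy in both lines. The list summed to 1040 and 1167 CPM in RB1 KO and 1507 and 1340 CPM in wild-type, highest in wild-type replicate 1. That library was also highest in LIG3, XRCC1, ERCC1, ERCC2, DDB1, RBX1, ELOF1, USP7, HMGN1, CCNH, CDK7 and GTF2H5. Of these, CDK7 and GTF2H5 had positive values, and in each of the other repair genes another library was highest. The G2 and mitosis median ran from -0.49 without wild-type replicate 2 to -0.26 without wild-type replicate 1 as each library was left out. DESeq2 called 8 of this list lower, against 158 of 14364 genes. EdgeR calls in it numbered 14 with the crossed pairing, against 1362 of 16426 genes called lower. They numbered 2 with no filter, 1 with the replicate block, 9 with library totals and 0 with spike-in scaling, where the median was -0.83. Its part in the values of the ligation and resynthesis genes was not tested. Of 19 p53 targets, 17 were positive, against 7932 of 16426 genes, with a median of 0.16 that was -0.32 with spike-in scaling. In edgeR 1 was called higher, ZMAT3 (0.45, adjusted p = 0.0432 from edgeR), against 1.99% of all genes. DESeq2 called 4 higher, against 426 of 14364 genes, and neither ZMAT3 nor any other was called with the replicate block or with spike-in scaling. The median ran from 0.16 to 0.20 as each library was left out. The crossed pairing gave 10 higher and 1 lower, against 1612 and 1362 of 16426 genes. The repair genes DDB2 (-0.17) and XPC (-0.0088), known as p53 targets too and not counted in that list, had negative values in the same fit. Neither sign is fixed, since DDB2 was 0.025 without wild-type replicate 2 and XPC was 0.002 with DESeq2.

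**Figure D4:**
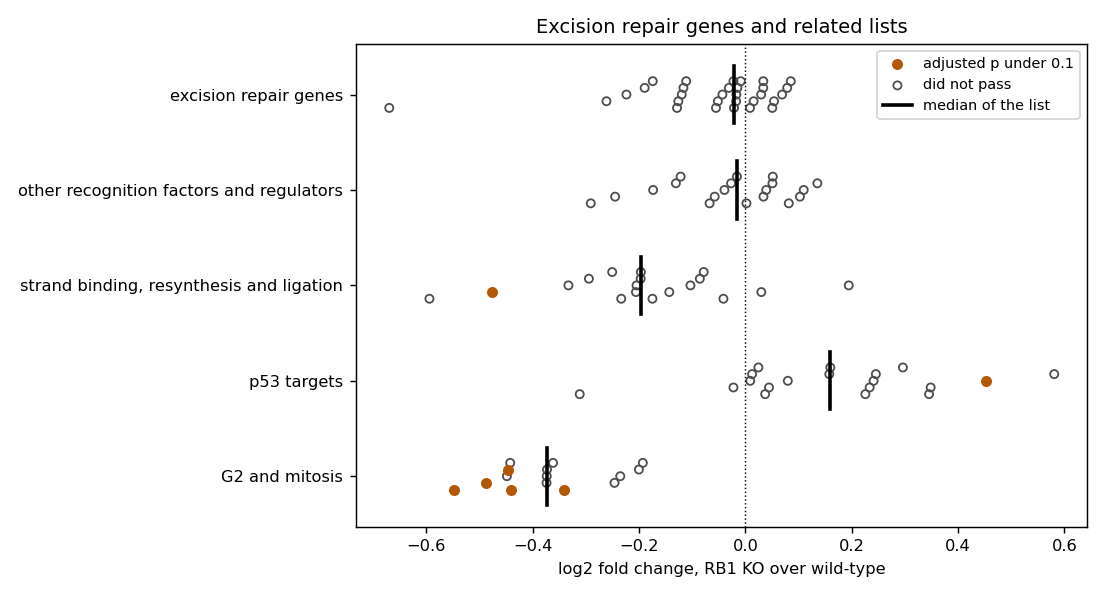
Log2 fold change of RB1 KO over wild-type for the 30 tested repair genes and 4 related lists (rows), with filled points for genes called at an adjusted p under 0.1 in edgeR, open points for the others and black bars at the list medians. The repair genes centre at -0.022 with RBX1 at -0.67 apart, the resynthesis genes at -0.20, the p53 targets at 0.16 and the genes of G2 and mitosis at -0.37, and with spike-in scaling these medians were -0.51, -0.65, -0.32 and -0.83 in that order.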

How the data were processed

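RNA of 2 RB1 KO and 2 wild-type IMR-90 libraries was used, grouped by the labels. The authors depleted ribosomal RNA, aligned paired reads to GRCh37 with STAR (2.7.2b in the submitters' processing notes), kept reads with 1 mapping place and summed them by gene of GENCODE v19. The deposited values are raw counts, and the strand column kept is not given in the sources used here. Reads on overlapping genes or identical copies are left out, which can lower some members. The 4 summary lines and 99 spike-in lines (92 ERCC, 7 SIRV) were kept apart from the gene totals and every test. Unmapped reads were 8.03% to 9.03%, reads outside genes 13% to 15.6% and ambiguous reads 2.06% to 2.17% of all reads in the table, and ERCC spike-ins 0.207% and 0.21% of gene counts in RB1 KO and 0.187% and 0.135% in wild-type.

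Names, coordinates and lengths came from GENCODE v44 mapped to GRCh37, which paired 55538 of 57820 IDs with a symbol, and MANE Select lengths were used for levels (for POLK the Ensembl canonical transcript). Tests used edgeR 4.0.16 in R 4.3.3 (quasi-likelihood, TMM, filterByExpr at a minimum count of 10 and total of 15), Benjamini-Hochberg adjustment over 16426 genes and calls at 0.1, the cutoff of the study. Intervals are 95% and use the standard error, the size of the fold change over the square root of F. Alternatives were DESeq2 1.42.0, limma-voom (limma 3.58.1), other scaling and filters, a replicate block and leaving out each library. The crossed block, the MANE Select lengths and the interval count across settings were added after seeing the data. The fit was tested on simulated data. Genes and lists were chosen with earlier results of these data known. Genes are named by rule: all members, those that recognise, verify or cut the lesion in full, RB1, and of other lists the passing genes with the smallest p or else the most abundant. PARP2, POLD2, POLE2, RFC2, LIG1 and POLR1G were named after their values were seen, and 1 gene of the other lists is not reported here. Whether replicates are separate cultures is not stated, and the p-values and intervals rest on library spread that may be technical. Replicates differed by more than sampling noise (chi-square per degree of freedom 17.6 in RB1 KO and 18.8 in wild-type). Tables and plots were made in Python 3.11.15 (pandas 2.3.3, matplotlib 3.10.9).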

Additional observations from a re-analysis of the deposited data

How the results depend on the processing

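In the settings that kept every library, no repair gene was called higher. None was called lower either, except RBX1, ERCC1 and LIG3 with the replicate numbers crossed. Those are 3 of 30, near the background, since the crossed fit called 1362 of 16426 genes lower. RBX1, LIG3, XRCC1, ERCC1, USP7, HMGN1, CETN2 and CCNH were negative under every setting run. These are the genes with RB1 KO below wild-type without overlap, as in 24.3% of all genes. Leaving out a library can hardly turn such a sign, and the other settings reuse the same libraries, so the constant sign is no further evidence. Fold changes near 0 have no fixed sign, and with 2 libraries a group one library can turn them. RBX1 rests on 59 to 118 counts a library, GTF2H4 on at most 1, and the median standard error of these genes was 0.0933 on the log2 scale. Without each library the lone sample of its group was assumed to vary like the other group.

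Over all genes, 327 were called higher and 149 lower. With library totals 326 were lower and 221 higher, with spike-in scaling 11 were higher and 168 lower, without a filter 90 were lower, and at an adjusted p under 0.05 157 were higher and 65 lower. Across genes, the deviations of the same-numbered libraries from their group means had a correlation of -0.29. With 2 libraries a group this cannot tell whether the numbers mark a shared culture or day. The crossed pairing was added after the data were seen, so its calls carry no weight as tests. The replicate block left 152 higher and 74 lower and the crossed pairing 1612 and 1362, the block calling 0 repair genes and 0 other pathway genes. As each library was left out, 186 to 770 were higher and 69 to 661 lower. Of the other pathway genes, 1 was called lower, against 0 with DESeq2, limma-voom, RLE factors, spike-in scaling, either other filter and an adjusted p under 0.05, 9 with the crossed pairing and 0 to 6 as each library was left out. Intervals within 0.5 of 0 numbered 29, and 0 with spike-in scaling.

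The median of all repair genes was -0.011 with DESeq2, -0.027 with limma-voom, -0.017 with RLE factors, -0.045 with upper-quartile factors, -0.088 with library totals, -0.51 with spike-in scaling, -0.016 without a filter, -0.027 with the replicate block and -0.027 with the crossed pairing. Global-genome recognition had -0.0065 with DESeq2. With upper-quartile factors the medians were -0.040 for global-genome recognition, 0.010 for the CUL4 ligase, 0.0066 for the TFIIH core and -0.075 for its kinase module. With library totals they were -0.083 for global-genome recognition, -0.033 for the CUL4 ligase, -0.11 for transcription-coupled repair, -0.036 for the TFIIH core, -0.12 for its kinase module and -0.086 for verification and incision. With spike-in scaling, which moved the median of all genes to -0.49, they were -0.50, -0.44, -0.55, -0.45, -0.54 and -0.50 in the same order, and -0.70 for gap filling and ligation. As each library was left out, medians ran from -0.039 to -0.015 for all repair genes, -0.036 to 0.0001 for global-genome recognition, -0.0098 to 0.065 for the CUL4 ligase, -0.099 to 0.046 for transcription-coupled repair, -0.0085 to 0.047 for the TFIIH core, -0.072 to 0.030 for its kinase module and -0.11 to 0.061 for verification and incision.

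Signs turned as follows, and the cause was not tested. DESeq2 gave XPC 0.002. Upper-quartile factors gave ERCC4 -0.014 and POLK -0.0077. Library totals gave CUL4A -0.033, CUL4B -0.012, GTF2H1 -0.033, GTF2H5 -0.036, CDK7 -0.015, ERCC4 -0.057 and POLK -0.051. Spike-in scaling gave RAD23B -0.39, CUL4A -0.44, CUL4B -0.43, ERCC8 -0.39, GTF2H1 -0.45, GTF2H3 -0.42, GTF2H5 -0.44, CDK7 -0.41, ERCC4 -0.47, POLK -0.46 and RB1 -0.36. Leaving out each library gave CDK7 -0.034 to 0.15, CUL4A -0.0098 to 0.081, CUL4B -0.0097 to 0.12, DDB1 -0.031 to 0.0043, DDB2 -0.34 to 0.025, ELOF1 -0.31 to 0.10, ERCC2 -0.25 to 0.039, ERCC3 -0.057 to 0.0004, ERCC4 -0.089 to 0.11, ERCC5 -0.12 to 0.11, ERCC6 -0.19 to 0.14, GTF2H5 -0.023 to 0.097, MNAT1 -0.13 to 0.030, POLK -0.011 to 0.055, UVSSA -0.089 to 0.076, XAB2 -0.099 to 0.056, XPA -0.28 to 0.21 and XPC -0.036 to 0.032. The log2 differences of ratios ran from -0.13 to 0.091 for CUL4A over CUL4B, -0.35 to 0.049 for DDB2 over DDB1, -0.063 to 0.31 for ERCC8 over ERCC6, -0.074 to 0.0028 for LIG3 over XRCC1, -0.23 to 0.012 for MNAT1 over CDK7 and -0.21 to 0.033 for XPC over RAD23B.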
